A study of Oryza sativa Japonica Group with 29 samples.

Results

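The effect of OsNMCP1 over-expression in watered rice roots was read from 5 RNA-seq libraries, 2 from plants that over-express OsNMCP1 (OE) and 3 from their wild type, the cultivar ZH11 (WT). They are 5 of the 29 samples of the series and were chosen by genotype and treatment alone, with no measured value. Both genotypes were Oryza sativa Japonica Group seedlings, 25 days old and at the 4-leaf stage, raised in hydroponic culture at 28 °C by day and 22 °C by night, and whole roots were collected. Another 6 RNA libraries, 3 OE and 3 WT from seedlings kept without water for 3 h, were used only to ask whether a difference seen in watered roots was also there after drought, and 18 ATAC-seq samples were not analysed here. Neither the promoter behind the transgene nor the number of transformed lines is named in the labels. The replicates are called biological, but nothing says that they came from separate cultures, so the p-values measure the spread between these libraries, which may be partly technical.

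OsNMCP1 encodes a nuclear matrix constituent protein. Such proteins are long coiled-coil proteins of the plant nuclear periphery that take the place of animal lamins, and their Arabidopsis relatives help to set nuclear shape and chromatin organisation. SWI3C, ARP4 and ARP7 are subunits of chromatin-remodelling complexes that move or evict nucleosomes, described mostly in Arabidopsis and yeast.

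Values are TPM, the transcript level as a share of the library corrected for transcript length. A locus entered the test if it reached at least 1 TPM in 2 or more of the 5 libraries, which 22210 of 55986 listed loci did. Differences are OE minus WT on the log2(TPM + 1) scale, which understates the change of loci with low values, and a locus is called here when its Benjamini-Hochberg adjusted p from limma is under 0.05. The sequence depth implied by the deposited coverage was 7.34 and 5.79 gigabases in the OE libraries, against 9.27, 9.29 and 8.56 gigabases in the WT libraries. The OE libraries are the shallower ones, and the part of depth in the results was not tested. The number of loci at 1 TPM or more was 21812 and 21803 in OE and between 21698 and 21756 in WT. Across loci, the libraries of 1 genotype correlated at 0.994 (OE) and 0.994 to 0.996 (WT), and OE with WT libraries at 0.968 to 0.973. WT replicate 2 was the WT library nearest to both OE libraries (0.973 with each).

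OsNMCP1 itself (LOC_Os01g56140, chromosome 1, 32327698 to 32332777 in the coordinates of the files, for which no source used here names a genome build) had 184 and 167 TPM in the OE libraries, against 35.5, 37.6 and 36.3 TPM in the WT libraries. The groups were far apart, with a difference of 2.24 (SE 0.06, limma adjusted p = 5e-07), in the direction of the genotype labels. Its close relative NMCP1A (LOC_Os02g48010) stood at 66.8 and 57.5 TPM in OE and 63.0, 62.7 and 63.3 TPM in WT, and the groups overlapped (difference -0.02, SE 0.07, limma adjusted p = 0.824).

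None of the remodelling subunits passed the test. SWI3C (LOC_Os11g08080) had 32.9 and 30.6 TPM in OE, against 28.6, 28.2 and 28.5 TPM in WT, a difference of 0.15 (SE 0.06, limma adjusted p = 0.0745). ARP4 had 49.0 and 43.7 TPM in OE and 45.1 to 46.1 TPM in WT, so its groups overlapped. ARP7 had 19.5 and 20.5 TPM in OE and 16.5 to 18.2 TPM in WT. Its difference of 0.21 (SE 0.07) lay beside the threshold, with a limma adjusted p of 0.0514 from all 5 libraries and 0.0488 without WT replicate 1.

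**Figure D1:**
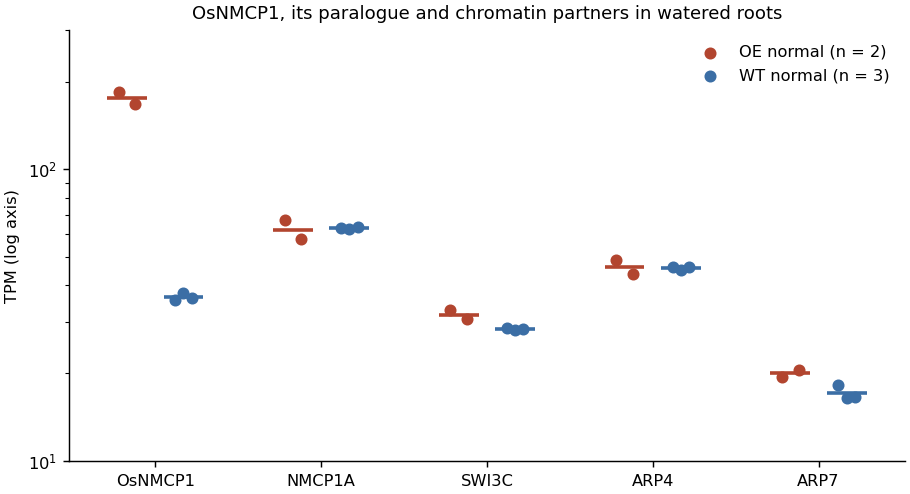
TPM of OsNMCP1, its paralogue NMCP1A and the remodelling subunits SWI3C, ARP4 and ARP7 on a log axis, 1 point per library, OE at the left and WT at the right of each gene, with a bar at the group mean. OsNMCP1 stands at 184 and 167 TPM in OE against 35.5 to 37.6 TPM in WT, while the other genes differ little between the genotypes.

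Across the genome, 7642 of 22210 loci tested were called, 34.4%, with 4478 higher (20.2%) and 3164 lower (14.2%) in OE roots. Most of these differences were small: 57.1% of the higher and 63.1% of the lower calls were under 0.5 on the log2 scale, and the median size was 0.45 and 0.41. At least a 2-fold difference was called at 850 loci (3.83%), 595 higher (2.68%) and 255 lower (1.15%), and at least a 4-fold difference at 75 higher and 37 lower. The values of the genotypes did not overlap at 58.8% of loci tested, so separate groups alone single out no gene. Over all loci tested the median difference was 0.03. When the same contrast was fitted together with the drought libraries, which then share 1 estimate of the spread, 458 loci were called and 306 of them differed at least 2-fold. The median SD between replicates over the loci tested, on the log2(TPM + 1) scale, was 0.0747 in OE and 0.0731 in WT for watered roots, and 0.246 in OE and 0.267 in WT after drought. Of 148 loci named below that were called in the 5-library fit, 21 were called in that joint fit as well. Of the 43 gene lists described below, 33 had no member called in the joint fit, against 2 in the 5-library fit. The iron list had 3 calls there, against 7, the JAZ list 2, against 8, and the metallothionein, low-oxygen, ammonium and nitrate, cellulose synthase, phenylpropanoid and expansin lists none. The lists and their members were chosen with earlier results of these data known, so the list shares given below are a description.

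**Figure D2:**
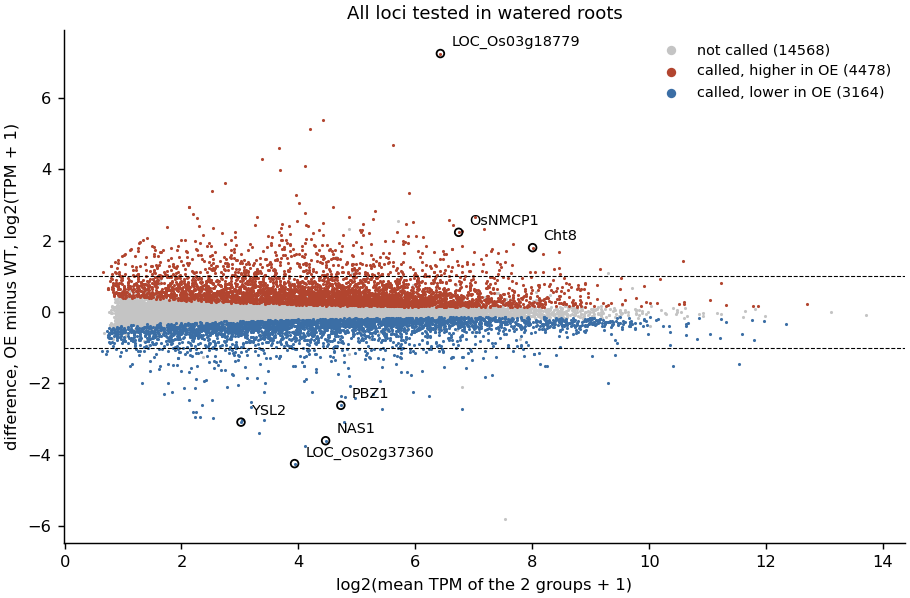
Difference between OE and WT in log2(TPM + 1) against the mean level of each locus tested, with called loci in colour and dashed lines at a 2-fold difference. Calls fill both sides, 4478 higher and 3164 lower, and most lie inside the dashed lines.

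Some loci without a name changed most. LOC_Os03g18779 (chromosome 3, 10518910 to 10520197) had 171 and 169 TPM in OE roots, against 0.239, 0.040 and 0.115 TPM in WT roots, a difference of 7.25 (SE 0.10, limma adjusted p = 1.8e-08). LOC_Os03g43100 (chromosome 3, 24046089 to 24047243) had 40.6 and 40.8 TPM in OE and was listed at 0 in every WT library. In the other direction, LOC_Os02g37360 had 0.371 and 0.704 TPM in OE, against 27.4, 28.7 and 28.1 TPM in WT (difference -4.25, SE 0.11, limma adjusted p = 4.44e-07). LOC_Os10g11889 had 0.814 and 2.12 TPM in OE and 28.5 to 35.4 TPM in WT. None of these 4 loci differed by so much after drought: LOC_Os03g18779 was between 0.104 and 0.375 TPM in OE after drought as well. LOC_Os03g18779 and LOC_Os03g43100 entered the test only through their OE libraries, and LOC_Os02g37360 only through its WT libraries. These differences are therefore a description.

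In all, 22 loci reached 1 TPM in both OE libraries and were listed at 0 in all 3 WT libraries, and 2 loci showed the opposite. The 22 loci ran between 1.103 and 40.8 TPM in OE, and 8 of them averaged at least 5 TPM. After drought, 2 of the 22 reached 1 TPM in any OE library, and 1 of them, LOC_Os03g43100, in all 3 (4.93, 6.47 and 2.51 TPM). None reached 1 TPM in a WT drought library.

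The 12 largest rises among named genes with at least 5 TPM and no overlap between the genotypes included 3 CML genes, which were not a list of their own. CML31 (LOC_Os01g72530) had 176 and 192 TPM in OE roots, against 35.0, 46.3 and 32 TPM in WT roots, a difference of 2.27 (SE 0.13, limma adjusted p = 1.32e-05). CML15 (LOC_Os05g31620) had 84.7 and 82.5 TPM in OE, against 17.1, 17.92 and 15.8 TPM in WT, and CML16 (LOC_Os01g04330) had 94.4 and 84.9 TPM in OE, against 20.8, 24.9 and 20.9 TPM in WT. The CML genes encode relatives of calmodulin that bind calcium, and their differences of 2.24 and 1.97 for CML15 and CML16 came with SE of 0.07 and 0.09. All OE values of the 3 genes lay above all WT values, as the selection required, and WT replicate 2 was the highest WT library for each.

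ADF-3, an actin-depolymerising factor, had 19.2 and 20.7 TPM in OE, against 3.31, 4.35 and 2.66 TPM in WT (difference 2.26, SE 0.15, limma adjusted p = 2.17e-05). OsSAP17, a zinc-finger protein of the stress-associated family, had 91.4 and 92.9 TPM in OE, against 21.3, 26.5 and 22.2 TPM in WT (1.94, SE 0.09). OsPP2C32, a protein phosphatase of type 2C, had 118 and 107 TPM in OE, against 28.4, 34.2 and 28.3 TPM in WT (1.86, SE 0.09). No overlap was a condition for naming these 3 genes as well. Cht8, a chitinase, was the most abundant gene of the group, with 393 and 404 TPM in OE, against 109, 121 and 110 TPM in WT (1.80, SE 0.06, limma adjusted p = 7.5e-07). BURP16, of the plant BURP-domain family, had 10.7 and 10.4 TPM in OE, against 2.83, 2.05 and 2.43 TPM in WT (1.75, SE 0.12).

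Among named genes under the same conditions, falls were led by genes of iron and nicotianamine metabolism. Grasses take up iron with phytosiderophores, and nicotianamine is both the precursor of these compounds and a carrier of metals within the plant. NAS1 (LOC_Os03g19427), a nicotianamine synthase, had 2.15 and 2.46 TPM in OE roots, against 45.3, 30.1 and 44.3 TPM in WT roots, a difference of -3.61 (SE 0.16, limma adjusted p = 4.24e-06). Its neighbour NAS2 (LOC_Os03g19420) had 1.80 and 1.51 TPM in OE, against 19.0, 9.82 and 15.1 TPM in WT (-2.51, SE 0.22, limma adjusted p = 8.82e-05). NAS1 and NAS2 are close copies, and how reads were divided between them is not known. In both, WT replicate 2 was the lowest WT library, and the selection required all WT values to lie above OE.

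NAAT1 (LOC_Os02g20360), the aminotransferase that carries nicotianamine on towards the phytosiderophore deoxymugineic acid, had 0.039 and 0.301 TPM in OE, against 8.34, 5.06 and 8.68 TPM in WT (-2.82, SE 0.21, limma adjusted p = 4.02e-05). YSL2 (LOC_Os02g43370), which transports metal-nicotianamine complexes, had 0.751 and 0.629 TPM in OE, against 15.6, 10.5 and 14.5 TPM in WT (-3.09, SE 0.15, limma adjusted p = 6.05e-06). The metal transporter NRAMP1 (LOC_Os07g15460) had 3.69 and 2.99 TPM in OE, against 18, 13.8 and 16.6 TPM in WT (-1.98, SE 0.12, limma adjusted p = 1.73e-05). No overlap was a condition for naming these genes, so the separation is a description. NAAT1 and YSL2 stayed under 1 TPM in both OE libraries and entered the test only through WT.

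The iron list did not move as a block. Of its 9 tested members, 5 were lower, 2 higher and 2 not called, with a median of -0.61, against 14.2% lower and 20.2% higher over all loci. The fifth lower member was IRO3, a bHLH regulator of the iron-deficiency response, with 9.37 and 10.1 TPM in OE, against 16.7, 13.6 and 16.1 TPM in WT (-0.61, SE 0.10). The higher members were YSL16, a transporter of copper-nicotianamine, with 25.7 and 27.6 TPM in OE, against 16.4 to 16.7 TPM in WT, and NAS3, with 115 and 118 TPM in OE, against 93.2 to 96.4 TPM in WT. NAS3 was the most abundant nicotianamine synthase in both genotypes, and its difference was 0.30 (SE 0.05). The uptake genes YSL15 (2.2 and 2.83 TPM in OE, 1.99 to 2.09 TPM in WT) and IRT1 (1.69 and 0.826 TPM in OE, 1.15 to 1.86 TPM in WT) were low and not called.

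Of 14 tested genes for zinc and other metals, 3 were higher and 4 lower (median -0.08), against 20.2% and 14.2% of all loci. ZIP1, a zinc transporter, had 179 and 207 TPM in OE, against 85.4, 84.7 and 88.7 TPM in WT (1.15, SE 0.07), and ZIP2 rose by 0.46 (SE 0.08). ZIP9, a zinc uptake transporter, fell by 0.44 (SE 0.06), with 89.2 and 89.9 TPM in OE, against 115 to 130 TPM in WT. The remaining calls were small and less firm. MTP1 (0.21) lost its call in 4 of the 5 fits that left out 1 library, with a limma adjusted p of up to 0.103 without OE replicate 2. NRAMP5 (-0.38), the manganese uptake transporter, lost it in 3, with up to 0.25 without OE replicate 2, and HMA5 (-0.17) in 4, with up to 0.109 without WT replicate 1.

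Metallothioneins, small cysteine-rich proteins that bind metals, were lower for all 5 tested members (median -0.63), against 14.2% of all loci. MT4A had 27 and 26.8 TPM in OE roots, against 85.5, 93.3 and 84.3 TPM in WT roots (-1.67, SE 0.06, limma adjusted p = 1.25e-06). MT4C, a copy close by, had 21.4 and 20.4 TPM in OE, against 69.8, 53.1 and 65.9 TPM in WT (-1.54, SE 0.11). MT2A had 779 and 798 TPM in OE and 1142 to 1285 TPM in WT (-0.63, SE 0.06), and MT2C 307 and 302 TPM in OE and 407 to 440 TPM in WT (-0.46, SE 0.05). MT1A, at 3188 and 3204 TPM in OE and 3556 to 3983 TPM in WT, differed by -0.21 and lost its call in 3 fits, with a limma adjusted p of 0.122 without OE replicate 1.

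**Figure D3:**
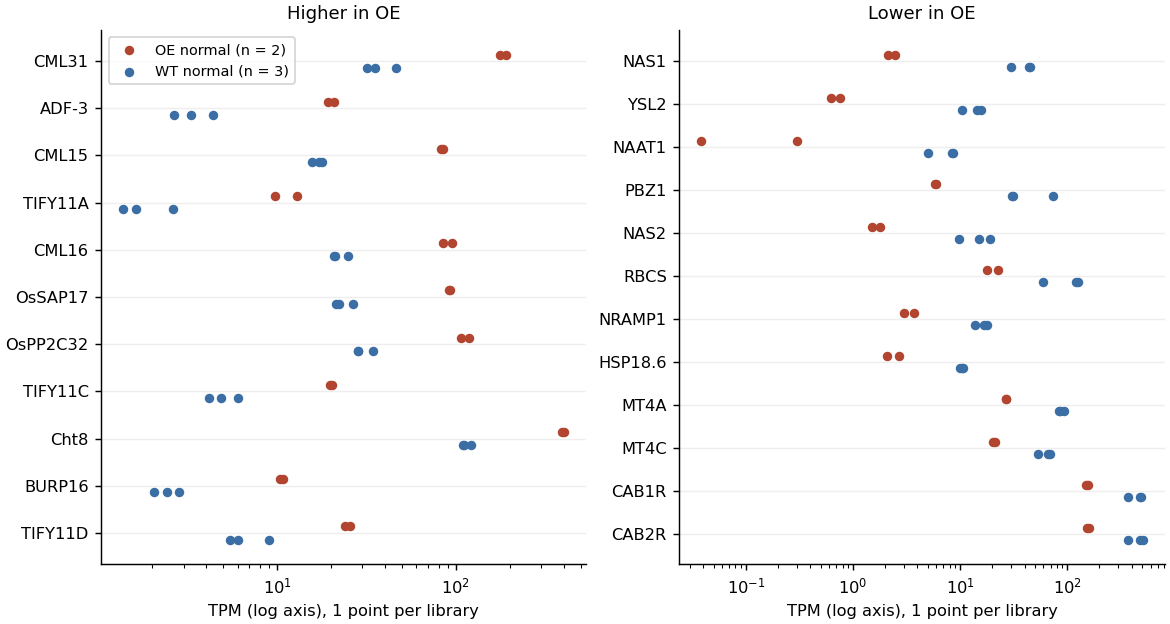
TPM per library on a log axis for the named genes with the largest rises (left panel) and falls (right panel), OE points above WT points in each row. Rows were chosen for having no overlap between the genotypes, so the gap in each is a description.

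Jasmonate is a lipid-derived hormone of defence and wounding whose response is held back by JAZ repressors, and the repressor genes are themselves switched on by the hormone. Of 10 tested genes for JAZ repressors and the receptor, 8 were higher in OE roots and none lower, against 20.2% and 14.2% of all loci, and the median was 1.21. TIFY11A had 9.68 and 13 TPM in OE, against 1.62, 2.6 and 1.38 TPM in WT (2.11, SE 0.19, limma adjusted p = 9.5e-05). TIFY11C had 20.2 and 19.8 TPM in OE, against 4.17, 6.02 and 4.83 TPM in WT (1.82, SE 0.13), and TIFY11D 23.8 and 25.7 TPM in OE, against 6.02, 9.04 and 5.44 TPM in WT (1.74, SE 0.17). TIFY11B, next to TIFY11C on chromosome 3, had 73.3 and 66.0 TPM in OE, against 18.8, 26.3 and 19.7 TPM in WT (1.66, SE 0.13). WT replicate 2 was the highest WT library for these 4 repressors and remained below OE, as the selection required of TIFY11A, TIFY11C and TIFY11D. TIFY11A, TIFY11B and TIFY11C are close copies, and the split of reads among them is not known.

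TIFY11E rose by 1.55 (SE 0.12) to 5.87 and 4.83 TPM in OE, against 1.09 to 1.20 TPM in WT. TIFY10C rose by 0.87 (SE 0.10). TIFY3, the most abundant member, had 211 and 216 TPM in OE and 143 to 157 TPM in WT (0.50, SE 0.05). TIFY9, at 1.71 and 1.45 TPM in OE and 0.832 to 1.00 TPM in WT, differed by 0.43 and lost its call in 4 fits, with a limma adjusted p of 0.15 without OE replicate 1. The receptor genes COI1A (0.16, limma adjusted p = 0.14) and COI1B (-0.01, limma adjusted p = 0.933) did not pass.

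Of 5 tested genes of jasmonate synthesis, 4 were higher and none lower (median 0.32), against 20.2% and 14.2% of all loci. OPR1 had 57.8 and 64.9 TPM in OE, against 27.8, 28.0 and 31.0 TPM in WT (1.06, SE 0.07, limma adjusted p = 2.82e-05). OPR1 belongs to a cluster of similar reductases, and its place in jasmonate synthesis is not settled. AOS1, an allene oxide synthase, had 32 and 33.6 TPM in OE and 18.4 to 21.7 TPM in WT (0.72, SE 0.08). OPR7, the reductase known to act in jasmonate synthesis in rice, had 94.0 and 99.1 TPM in OE and 79.5 to 82.5 TPM in WT (0.25, SE 0.05). JAR1, which joins jasmonate to isoleucine, differed by 0.19 and lost its call in 4 fits, with a limma adjusted p of 0.116 without OE replicate 1.

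Pathogenesis-related genes were called for all 9 tested members, 6 higher and 3 lower (median 0.66), against 20.2% and 14.2% of all loci. Besides Cht8, the chitinases Cht2 (493 and 483 TPM in OE, 244 to 268 TPM in WT) and Cht3 (13.9 and 17.72 TPM in OE, 5.80 to 7.08 TPM in WT) rose by 0.94 (SE 0.05) and 1.21 (SE 0.12). The list went both ways even between neighbours: Cht9, beside Cht2 on chromosome 5, had 0.819 and 1.03 TPM in OE, against 3.99 to 4.84 TPM in WT (-1.47, SE 0.12). PBZ1, a PR10 protein induced by the defence activator probenazole, had 5.92 and 5.89 TPM in OE, against 31.4, 73.2 and 30.4 TPM in WT (-2.61, SE 0.32, limma adjusted p = 0.000511). Here WT replicate 2 was the library farthest from OE. Cht10 (-0.26) lost its call in 4 fits, with a limma adjusted p of up to 0.163 without OE replicate 1.

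Of 5 tested WRKY factors, which bind the promoters of many defence genes, 3 were higher and none lower, against 20.2% and 14.2% of all loci. WRKY24 had 8.04 and 9.78 TPM in OE, against 2.49 to 3.88 TPM in WT (1.33, SE 0.16). WRKY71 had 24.4 and 34.4 TPM in OE, against 7.83, 16.6 and 8.81 TPM in WT (1.38, SE 0.27), and its call was lost without OE replicate 2 (limma adjusted p = 0.0624). WRKY51 rose by 0.47 (SE 0.05). Of 8 tested MYB factors, 75.0% were called, against 34.4% of all loci. MYB2 (17.2 and 20.2 TPM in OE, 7.2 to 8.3 TPM in WT, 1.15, SE 0.10) and MYB4 (0.57, SE 0.07) rose, while MYBAS1 (111 and 106 TPM in OE, 204 to 220 TPM in WT, -0.95, SE 0.05) and MYBS2 (-0.29) fell. MYBAS2 (-0.63) and MYBS1 (-0.30) each lost their call in 3 fits, with limma adjusted p of up to 0.113 without OE replicate 1 and 0.069 without WT replicate 3. Diterpenoid phytoalexins are antimicrobial compounds of rice. Of 6 tested genes for them, 33.3% were called, close to the 34.4% of all loci, and none was higher. CYP76M8 fell by 1.29 (SE 0.11), with 4.59 and 6.08 TPM in OE and 13.4 to 15.1 TPM in WT. CYP71Z7 (-0.47) lost its call in 3 fits, with a limma adjusted p of up to 0.209 without OE replicate 1.

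Phosphate transporters were among the nutrient genes that rose. PT1, a phosphate transporter, had 147 and 159 TPM in OE roots, against 53.2, 60.8 and 53.3 TPM in WT roots (1.44, SE 0.07, limma adjusted p = 6e-06), and PT4, of the same family, had 49.4 and 60.5 TPM in OE, against 21.3 to 22.7 TPM in WT (1.29, SE 0.09). SPX2, of the family that senses phosphate status, had 6.15 and 5.12 TPM in OE and 2.04 to 2.81 TPM in WT (0.94, SE 0.13). In the list, 4 of 10 tested members were higher and 2 lower (median 0.16), against 20.2% and 14.2% of all loci. The others called were MGD3 (0.26), PT6 (-0.56) and PHO1-2 (-0.21, SE 0.04), the gene for loading phosphate into the xylem. MGD3 lost its call in 2 fits, with a limma adjusted p of up to 0.0862 without OE replicate 1. SPX1 (0.06) was not called.

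Of 8 tested genes for ammonium and nitrate, 5 were lower and 1 higher (median -0.50), against 14.2% and 20.2% of all loci. The ammonium transporter AMT1-2 had 156 and 164 TPM in OE, against 366, 353 and 370 TPM in WT (-1.18, SE 0.05, limma adjusted p = 2.31e-06). AMT1-3 had 2.38 and 2.24 TPM in OE, against 7.36 to 7.68 TPM in WT (-1.36, SE 0.09). AMT1-2 and AMT1-3 lie close together on chromosome 2 and are similar in sequence, so a part of their reads could be shared. GLN1-2, a cytosolic glutamine synthetase that assimilates ammonium in roots, had 1609 and 1699 TPM in OE, against 2604, 2496 and 2521 TPM in WT (-0.62, SE 0.05). The nitrate reductase gene NIA1 had 33.7 and 35.3 TPM in OE and 50.5 to 56.8 TPM in WT (-0.61, SE 0.06), and NAR2.1, the partner of high-affinity nitrate transporters, differed by -0.40 (SE 0.08). AMT1-1 went the other way, with 83.2 and 86.6 TPM in OE and 69.6 to 72.6 TPM in WT (0.25, SE 0.05).

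Potassium, silicon and water transport genes were called about as often as all loci (34.4%), at 33.3% of 3, 33.3% of 3, 28.6% of 7 PIP and 40.0% of 5 TIP genes. HAK5, a high-affinity potassium transporter, had 1.33 and 1.68 TPM in OE, against 0.074 to 0.241 TPM in WT (1.12, SE 0.14), while HAK1, at 157 and 166 TPM in OE and 164 to 172 TPM in WT, was not called. HAK5 entered the test only through its OE libraries. The silicon influx channel LSI1 had 1008 and 1092 TPM in OE, against 1210, 1187 and 1233 TPM in WT (-0.21, SE 0.05), and its call was lost without OE replicate 1 (limma adjusted p = 0.0936) and without WT replicate 3 (0.0696). The values of the efflux transporter LSI2 overlapped between the genotypes. Aquaporins are water channels, of the plasma membrane (PIP) or the vacuole (TIP). Of 7 tested PIP genes, 2 were lower and none higher: PIP2-5 had 11.7 and 12.1 TPM in OE, against 19.6 to 24.8 TPM in WT (-0.80, SE 0.10), and PIP2-3 (-0.15) lost its call in all 5 fits that left out a library, with limma adjusted p of 0.0581 to 0.171. Of 5 tested TIP genes, TIP1-2 was lower (-0.65, SE 0.11) and TIP4-1 higher (0.20). The call of TIP4-1 was lost without OE replicate 1 (limma adjusted p = 0.0714) and without WT replicate 1 (0.0617).

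Genes of low oxygen, which let cells ferment sugar when respiration stalls, were lower for 4 of 5 tested members and higher for none (median -0.66), against 14.2% and 20.2% of all loci. ADH1, an alcohol dehydrogenase, had 69.2 and 70.8 TPM in OE roots, against 121, 112 and 120 TPM in WT roots (-0.74, SE 0.05, limma adjusted p = 2.97e-05). The haemoglobin gene NSHB2 had 475 and 529 TPM in OE, against 861, 892 and 827 TPM in WT (-0.78, SE 0.06), and the pyruvate decarboxylase PDC2 had 259 and 285 TPM in OE, against 383 to 457 TPM in WT (-0.67, SE 0.08). All 3 genes showed both OE libraries below WT, while the genotypes did not overlap at 58.8% of all loci tested. They were named for the lowest adjusted p in the list. SUS1, a sucrose synthase, differed by -0.27 and lost its call without OE replicate 2 (limma adjusted p = 0.124). ADH2, close to ADH1 on chromosome 11, overlapped between the genotypes, at 379 and 472 TPM in OE and 387 to 453 TPM in WT.

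Small heat shock proteins are chaperones that bind unfolding proteins. The heat shock protein list was called about as often as all loci (40.0% of 5, against 34.4%). HSP18.0 had 307 and 313 TPM in OE, against 735, 715 and 733 TPM in WT (-1.23, SE 0.04, limma adjusted p = 1.1e-06). HSP18.6, named for its place among the largest falls, had 2.67 and 2.06 TPM in OE, against 10.04 to 10.7 TPM in WT (-1.77, SE 0.10). HSP17.9A had 51.3 and 57.2 TPM in OE and 86.5 to 88.5 TPM in WT (-0.68, SE 0.06). Of the 5 tested members of the heat shock protein list, which does not hold HSP18.6, 2 were lower and none higher. The other 3 were not called, among them HSP82, a chaperone of another class (-0.01). Of 14 heat shock factors, which switch on such genes, 4 were higher and 3 lower, against 20.2% and 14.2% of all loci. HSFA3 (0.96, SE 0.10), HSFB1 (0.70, SE 0.06), HSFC2B (0.53) and HSFA4D (0.44) rose, and HSFA4B (-0.54), HSFC2A (-0.61) and HSFA2B (-0.59) fell. HSFA4D lost its call in 3 fits, with a limma adjusted p of up to 0.148 without OE replicate 2.

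Genes of the abscisic acid pathway, the hormone of water deficit, gave mixed differences in these watered roots. NCED3, the enzyme that sets the rate of abscisic acid synthesis, had 1.80 and 2.17 TPM in OE, against 0.931 to 0.997 TPM in WT (0.60, SE 0.12, limma adjusted p = 0.00534). Its WT values were all under 1 TPM, so NCED3 entered the test only through the OE libraries. ZEP, an earlier enzyme, differed by -0.31 (SE 0.06), and ABA8OX1, which breaks the hormone down, by 0.33, a call lost without OE replicate 2 (limma adjusted p = 0.0712). Of 7 tested clade A phosphatases, the negative regulators of the pathway, 3 were higher and 1 lower (57.1% called, against 34.4% of all loci). PP2C68 had 22.5 and 21.8 TPM in OE and 9.05 to 10.1 TPM in WT (1.14, SE 0.08), and PP2C30 2.96 and 3.89 TPM in OE and 1.248 to 1.76 TPM in WT (0.80, SE 0.14). PP2C08 (0.33) lost its call in 4 fits, with a limma adjusted p of up to 0.153 without OE replicate 1, and PP2C09 (-0.31) without OE replicate 1 (0.0542).

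Of 9 SnRK2 kinases, which those phosphatases hold inactive, 44.4% were called, against 34.4% of all loci. SAPK6 (0.36, SE 0.07) and SAPK2 (0.29, SE 0.06) were higher and SAPK5 (-0.29, SE 0.06) and SAPK7 (-0.16) lower. SAPK7 lost its call in 4 fits, with a limma adjusted p of up to 0.115 without WT replicate 1. The bZIP factors BZIP23 (61.2 and 61.8 TPM in OE, 58.5 to 61.1 TPM in WT) and TRAB1 (31.6 and 28.3 TPM in OE, 29.1 to 31.2 TPM in WT) were not called. Dehydrins protect cells as they dry: RAB16D rose by 0.83 (SE 0.11) to 4.06 and 4.10 TPM in OE, against 1.71 to 2.03 TPM in WT, and LIP9, at 216 and 228 TPM in OE and 218 to 241 TPM in WT, was not called.

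Among factors tied to drought and cold, NAC5 had 202 and 199 TPM in OE, against 293, 309 and 299 TPM in WT (-0.58, SE 0.04), while NAC3 (87.2 and 87.8 TPM in OE, 50.7 to 59.4 TPM in WT, 0.67, SE 0.07) and NAC4 (4.99 and 4.52 TPM in OE, 1.72 to 2.89 TPM in WT, 0.82, SE 0.15) were higher. Of 4 tested stress NAC factors, 2 were higher and 1 lower, against 20.2% and 14.2% of all loci. Of 4 tested DREB and CBF factors, 2 were higher and none lower, and DREB2B (0.23) was among those not called. DREB1C had 3.62 and 3.73 TPM in OE, against 0.365, 1.11 and 0.049 TPM in WT (1.69, SE 0.26, limma adjusted p = 0.0014). DREB1G had 2.95 and 2.74 TPM in OE, against 0.283, 2.03 and 0.435 TPM in WT (1.12, SE 0.33), where WT replicate 2 lay near OE. Its call was lost in 4 of the 5 fits that left out a library, with a limma adjusted p of up to 0.148 without OE replicate 1.

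**Figure D4:**
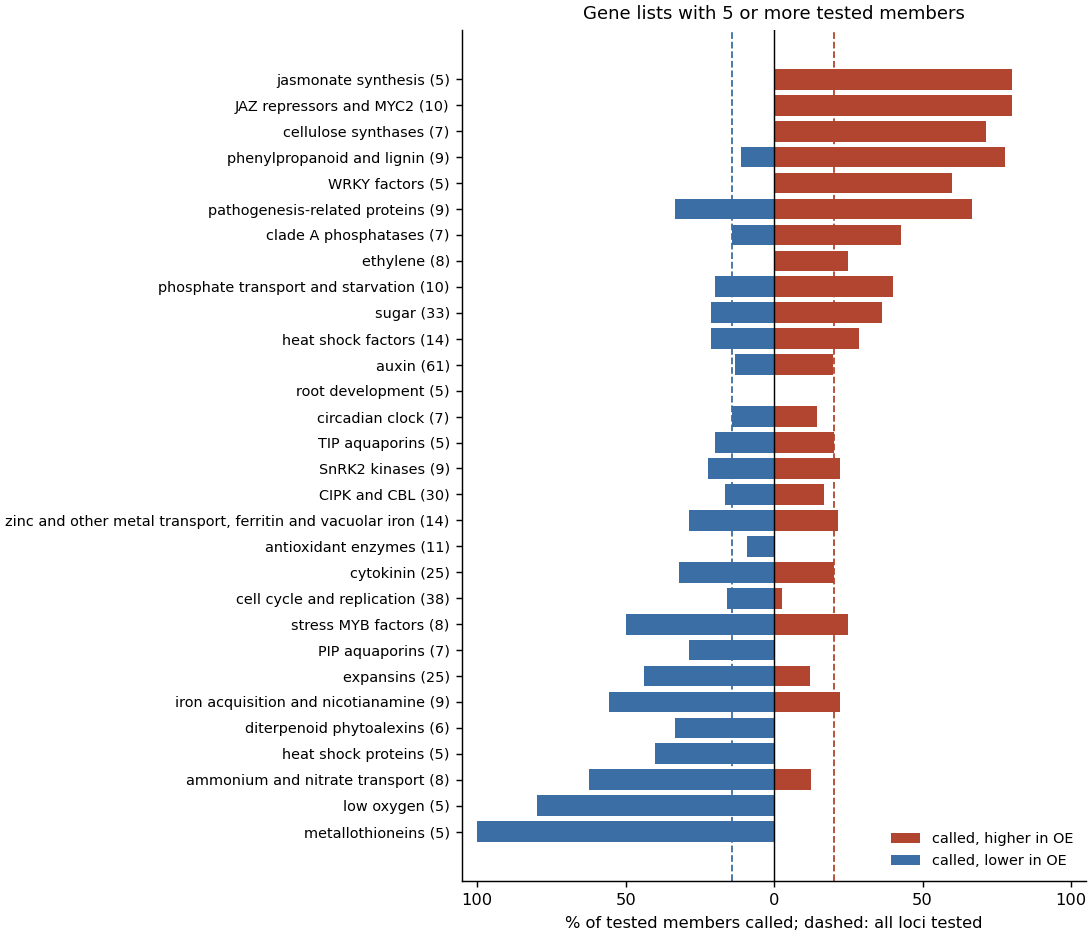
Share of tested members called higher (to the right) and lower (to the left) in OE for each gene list with 5 or more tested members, the number tested in brackets, with dashed lines at the shares of all loci tested, 20.2% and 14.2%. The jasmonate, cellulose synthase and phenylpropanoid lists reach far to the right and the metallothionein and low-oxygen lists far to the left. The lists were chosen with earlier results of these data known, so these shares are a description.

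Of 7 cellulose synthases, 5 were higher and none lower in OE roots, against 20.2% and 14.2% of all loci, by small amounts (median 0.22): CESA6 had 240 and 225 TPM in OE roots, against 172 to 176 TPM in WT roots (0.42, SE 0.05), CESA5 rose by 0.25 (SE 0.04), and CESA4 and CESA8, which act in secondary walls and primary walls, by 0.23 and 0.22 (SE 0.04 each). CESA1 (0.20) lost its call without OE replicate 1 (limma adjusted p = 0.072), OE replicate 2 (0.05) and WT replicate 3 (0.0638). Of 9 genes of phenylpropanoid and lignin synthesis, 7 were higher and 1 lower (median 0.26), against 20.2% and 14.2% of all loci. PAL06, a phenylalanine ammonia-lyase at the entry of the pathway, had 77.5 and 87.7 TPM in OE, against 44.3 to 47.3 TPM in WT (0.82, SE 0.07). CAD2, the main alcohol dehydrogenase of lignin synthesis, had 487 and 549 TPM in OE and 373 to 393 TPM in WT (0.44, SE 0.06), and CAD9 fell by 0.62 (SE 0.08).

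Expansins loosen walls as cells grow, and of 25 tested, 11 were lower and 3 higher (median -0.17), against 14.2% and 20.2% of all loci. EXPA12 had 15.4 and 16.4 TPM in OE, against 30.6 to 33.2 TPM in WT (-0.95, SE 0.07). EXPB7 had 101 and 116 TPM in OE, against 174 to 175 TPM in WT (-0.68, SE 0.06), and EXPB3 41.1 and 44.6 TPM in OE, against 68.4 to 71.7 TPM in WT (-0.71, SE 0.06). The higher ones were EXPA7 (0.47), EXPA5 (0.44) and EXPA31 (0.44), the last of which lost its call without OE replicate 1 (limma adjusted p = 0.057). The list summed to 771.7 and 825.1 TPM in OE, against 996.3 to 1062.5 TPM in WT.

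Growth genes had few calls. Of 38 genes of the cell cycle and replication, 6 were lower and 1 higher, 18.4% of those tested against 34.4% of all loci. H2B.3, a histone, differed by -0.32 (SE 0.06), PCNA, the sliding clamp of replication, had 93.3 and 90.4 TPM in OE and 94.7 to 103 TPM in WT and was not called, and CYCB1-1 (-0.17) was not called. CDKB2-1 (-0.21) lost its call without OE replicate 2 (limma adjusted p = 0.072), WT replicate 1 (0.0542) and WT replicate 3 (0.0757). ORC2 (0.23), the higher member, lost it in 3 fits, with up to 0.244 without OE replicate 1. None of 5 tested genes of root development was called, among them QHB, a marker of the quiescent centre (2.05 and 2.09 TPM in OE, 1.97 to 2.18 TPM in WT). The crown-root gene WOX11, at 2.49 and 2.43 TPM in OE and 1.31 to 1.89 TPM in WT, had a limma adjusted p of 0.0532, and 0.036 without WT replicate 2.

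Other hormones gave mixed lists. Of 61 auxin genes, 12 were higher and 8 lower (32.8% called, close to the 34.4% of all loci). IAA20 had 102 and 101 TPM in OE, against 52.6 to 59.2 TPM in WT (0.85, SE 0.06), IAA12 rose by 0.49 (SE 0.05), and PIN5C, an auxin carrier, had 3.03 and 3.31 TPM in OE, against 8.74 to 12 TPM in WT (-1.38, SE 0.13). Of 25 cytokinin genes, 5 were higher and 8 lower (52.0% called, against 34.4% of all loci). RR6, a response regulator, had 36.3 and 40.7 TPM in OE, against 16.0 to 18.2 TPM in WT (1.12, SE 0.08), RR4, of the same family, fell by 0.58 (SE 0.05), and LOGL8, of the family of cytokinin-activating enzymes, had 9.54 and 8.22 TPM in OE, against 2.23 to 3.78 TPM in WT (1.37, SE 0.17).

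Of 8 ethylene genes, 25.0% were called, against 34.4% of all loci. The ethylene synthesis gene ACS1 had 13 and 15.1 TPM in OE, against 3.63 to 5.15 TPM in WT (1.51, SE 0.13, limma adjusted p = 8.34e-05). ACS2 (0.56) lost its call in 4 fits, with a limma adjusted p of up to 0.145 without OE replicate 2, and the other 6 of 8 ethylene genes were not called. The gibberellin synthesis gene GA20OX2, known as the semi-dwarf gene of rice breeding, had 3.63 and 2.88 TPM in OE, against 6.09 to 7.33 TPM in WT (-0.82, SE 0.12). The strigolactone synthesis genes CCD7 (46.6 and 42.5 TPM in OE, 33.6 to 35.1 TPM in WT, 0.36, SE 0.06) and CCD8A (1.61 and 1.45 TPM in OE, 0.438 to 0.575 TPM in WT, 0.74, SE 0.12) were both higher. CCD8A entered the test only through its OE libraries.

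Of 33 sugar genes, 12 were higher and 7 lower (57.6% called, against 34.4% of all loci). SWEET14, a sugar exporter, had 52.5 and 55.1 TPM in OE, against 29.0 to 30.6 TPM in WT (0.84, SE 0.06), MST3, a monosaccharide transporter, rose by 0.61 (SE 0.05), and TPP7, a trehalose phosphate phosphatase, had 30.0 and 30.4 TPM in OE, against 13.9 to 17.3 TPM in WT (0.96, SE 0.09). Of 30 CIPK and CBL genes, which relay calcium signals, 5 were higher and 5 lower (33.3% called, close to the 34.4% of all loci), among them CIPK3 (0.79, SE 0.12) and CIPK7 (-0.74, SE 0.06). Of 11 antioxidant enzymes, 1 was called (9.1%, against 34.4% of all loci), the chloroplast peroxidase APX8 (-0.78, SE 0.13). The catalase CAT-A spread widely, at 868 and 1153 TPM in OE and 920, 458 and 571 TPM in WT, and was called only without WT replicate 1 (limma adjusted p = 0.07 with all 5 libraries and 0.00175 without it). Of 7 clock genes, 28.6% were called, against 34.4% of all loci. PCL1 was higher (112 and 116 TPM in OE, 73.2 to 80.4 TPM in WT, 0.54, SE 0.06) and PRR95 lower (-0.50, SE 0.06).

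Genes of green tissue were lower in OE roots. All 3 tested markers fell, against 14.2% of all loci. RBCS, a small subunit of Rubisco, had 17.8 and 22.5 TPM in OE, against 126, 60.1 and 122 TPM in WT (-2.23, SE 0.28, limma adjusted p = 0.00058). The light-harvesting genes CAB1R (150 and 155 TPM in OE, 476, 368 and 488 TPM in WT, -1.52, SE 0.11) and CAB2R (160 and 153 TPM in OE, 482, 371 and 506 TPM in WT, -1.51, SE 0.12) followed, and they are similar in sequence. Their summed level was 327.8 and 330.4 TPM in OE and 799.2 to 1114.5 TPM in WT. Fewer green cells and less of these transcripts per cell cannot be told apart in bulk RNA, and the part of these markers in the other results was not tested. Of 4 tested root markers, LSI1 and NAR2.1 were lower and the others not called. They summed to 1785.9 and 1935.7 TPM in OE and 1989.3 to 2036.1 TPM in WT, so root transcripts were abundant in both genotypes. Markers of dividing cells summed to 159.0 and 163.2 TPM in OE and 172.2 to 181.4 TPM in WT, with CDKB2-1 lower.

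The calls were spread over the genome. Per chromosome, 31.3% (chromosome 12) to 36.0% (chromosome 6) of loci tested were called. Among 350 windows of 1 Mb with at least 20 loci tested, the share ran from 12.5% to 58.6%, with a median of 33.6%. The longest runs of neighbouring loci called in 1 direction held 7 higher loci on chromosome 11 (25886463 to 26059083, median difference 0.51) and 7 on chromosome 2 (6195010 to 6271229, median 0.74). The longest runs of lower loci held 6, on chromosome 4 (32296089 to 32339536, median -1.06) and chromosome 8 (27669939 to 27692759, median -0.76). Cht8 lay in a run of 6 higher loci on chromosome 10, and PBZ1 closed a run of 5 lower loci on chromosome 12.

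After drought, the difference between OE and WT was larger for OsNMCP1. Of the 23 other named genes with the largest rises and falls in watered roots, 12 passed the test for an effect that differed after drought. In all 12 the effect was nearer 0 after drought. The drought libraries are labelled as RNA-seq in their titles, although their molecule field gives genomic DNA, and they are taken here as RNA. They form a block of the series apart from the watered libraries, so drought and any difference between the blocks cannot be told apart. OsNMCP1 then had 452, 424 and 347 TPM in OE, against 37.4, 28.1 and 46.4 TPM in WT. The effect after drought minus the effect in watered roots was 1.20 (SE 0.26, limma adjusted p = 0.0147 for the interaction in an 11-library fit, which called 15.9% of 23699 loci). The genes were chosen by their difference in watered roots, which also enters this interaction, so the share is a description. For YSL2 the effect was 0.49 after drought and -3.09 in watered roots, and the difference of 3.58 was called (SE 0.48, limma adjusted p = 0.0019). After drought YSL2 stood at 3.98, 4.50 and 1.36 TPM in OE, against 2.91, 1.28 and 1.61 TPM in WT, and the groups overlapped.

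Cht8 had an effect of -0.20 after drought and 1.80 in watered roots, with a difference of -2.00 (SE 0.18, limma adjusted p = 0.000201). NRAMP1 had -0.18 after drought and -1.98 in watered roots, with a difference of 1.80 (SE 0.24, limma adjusted p = 0.0019). After drought Cht8 stood at 297, 292 and 249 TPM in OE and 324, 353 and 286 TPM in WT, and the groups overlapped. For CML15, TIFY11A, CML16, OsPP2C32, BURP16, NAS2, RBCS, MT4A, MT4C, CAB1R and CAB2R the interaction did not pass the threshold, which does not show that the effects were alike. Among them, MT4C (-2.98) and CAB2R (-2.86) had effects farther from 0 after drought than in watered roots, and the others had effects nearer 0.

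**Figure D5:**
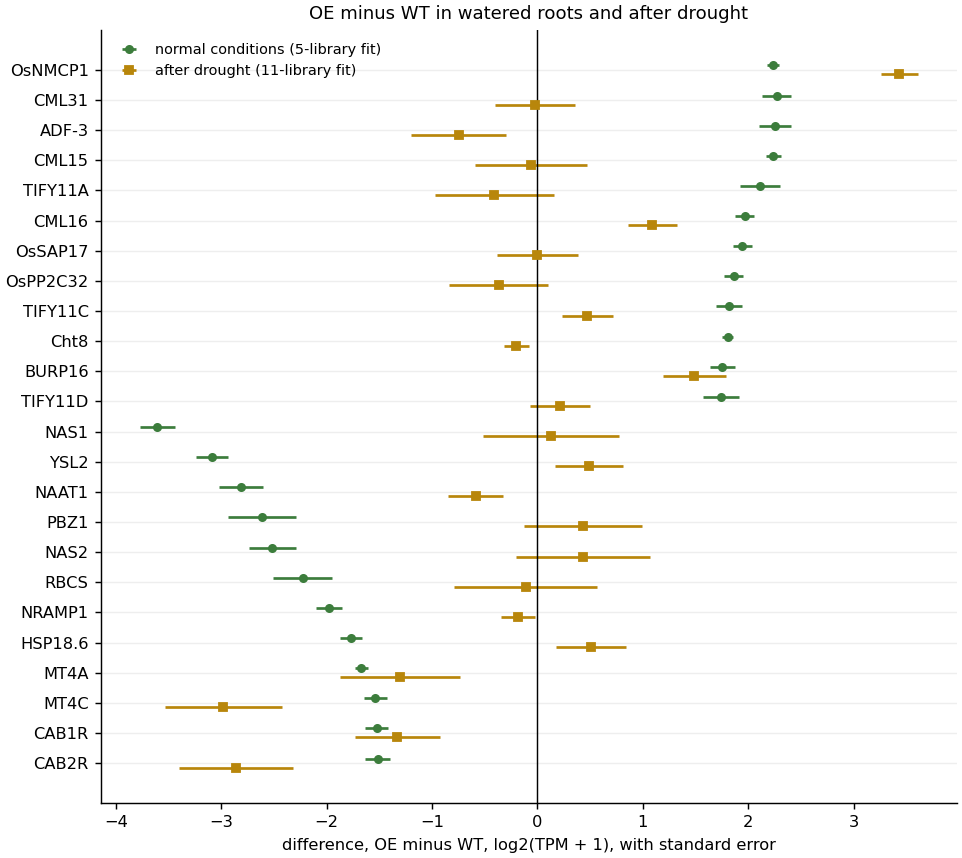
Difference between OE and WT in log2(TPM + 1), with standard errors, in watered roots (circles, 5-library fit) and after drought (squares, 11-library fit), for OsNMCP1 and the named genes with the largest rises and falls. The circles lie far from 0 for every gene, whereas the squares of genes such as Cht8 and NRAMP1 lie near 0.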

How the data were processed

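RNA-seq of roots was deposited as 1 table per library with Coverage, FPKM and TPM per locus, as the file headers show. Per the submitters' processing notes, StringTie 1.3.6, STAR 1.5.2 and SAMtools 1.9 were among the tools used, with fastp and FastQC, but no role is given. The authors deposited TPM and FPKM, both scaled to the library and to transcript length, and mean coverage signal per base. Depth was implied for each library as the median over loci of coverage divided by FPKM. No counts were used, so counting intervals were not made. Build, annotation, strandedness and the handling of near-identical copies were not stated, so reads of antisense or copied genes cannot be told apart.

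TPM was tested as log2(TPM + 1), with loci of at least 1 TPM in 2 of the 5 libraries, by limma 3.58.1 (R 4.3.3) with a mean-variance trend, two-sided, Benjamini-Hochberg over all 22210 loci. An exact permutation test of 2 against 3 cannot go below p = 0.1. The fit was tested on simulated data. The drought interaction was tested in a group-means fit over 11 libraries.

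Symbols came from RefSeq ASM3414082v1, paired by chromosome, length and neighbouring loci (2415 loci, of which 448 had equal length; 10 with 2 names were dropped), so a symbol may be wrong. The 43 gene lists held 513 loci, of which 434 passed the filter. Named were OsNMCP1, NMCP1A and SWI3C, the 12 largest rises and falls with a name, at least 5 TPM and no overlap, up to 3 members per list by adjusted p, and 2 unnamed loci each way. Other list members were named after their values were seen. The members and lists were chosen with earlier results of these data known. Alternatives were another scaling, FPKM, pseudocount, filters, variance models, the 11-library fit, a replicate block and leaving out each library. No symbol was paired for the RBOH list.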

Additional observations from a re-analysis of the deposited data

Results flagged for a closer look

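Of 168 named loci, 65 had an OE effect that differed between drought and watered roots in the 11-library interaction (limma adjusted p under 0.05), and 15.9% of all 23699 loci tested passed. The naming rules use the effect in watered roots, which also enters the interaction, so the share is a description. The values below are the effect after drought minus the effect in watered roots, on the log2(TPM + 1) scale. The effects share no library, and what sets them apart was not tested. Watered and drought RNA libraries form separate blocks of the series, so drought and any difference between the blocks cannot be told apart. With groups of 2 and 3 libraries, no library was tested as standing apart from its group.

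OsNMCP1 had a larger effect after drought, by 1.20 (limma adjusted p = 0.0147). Among loci that were higher in watered OE roots, the effect was lower after drought by these amounts: -2.29 for CML31, -3.00 for ADF-3, -1.94 for OsSAP17, -1.35 for TIFY11C, -1.53 for TIFY11D, -1.47 for TIFY10C and -2.00 for Cht8. It was -7.37 for LOC_Os03g18779 and -2.96 for LOC_Os03g43100. Transport and wall genes of the same kind gave -1.73 for PT1, -1.69 for PT4, -1.45 for ZIP2, -1.85 for NAS3, -2.57 for SWEET14, -1.86 for PAL06 and -1.49 for CAD2. The cellulose synthases gave -1.76 for CESA6, -1.96 for CESA5, -1.55 for CESA1 and -1.65 for CESA8. Regulators and others gave -2.27 for WRKY71, -1.89 for MYB2, -1.46 for Cht2, -1.61 for IAA20, -1.54 for RR6 and -0.54 for OPR7. Limma adjusted p in these loci ran from 3.15e-07 (LOC_Os03g18779) to 0.0474 (OsSAP17).

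Among loci that were lower in watered OE roots, the effect was higher after drought by 3.74 for NAS1, 3.58 for YSL2, 2.23 for NAAT1, 1.80 for NRAMP1, 3.04 for PBZ1 and 2.28 for HSP18.6. It was 5.12 for LOC_Os02g37360, 5.20 for LOC_Os10g11889 and 1.12 for PIN5C. The low-oxygen genes gave 2.26 for ADH1, 2.26 for NSHB2 and 1.67 for PDC2, with effects of 1.52, 1.48 and 1.01 after drought, against -0.74, -0.78 and -0.67 in watered roots. Other loci that were lower in watered roots and had a positive effect after drought gave 3.6 for NAC5, 2.18 for PP2C09, 2.54 for EXPA12, 2.85 for PRR95 and 3.56 for HSFC2A. Limma adjusted p ran from 3.06e-05 (NAC5) to 0.0429 (EXPA12).

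The abscisic acid genes NCED3, PP2C68 and PP2C30 had positive effects in both conditions, larger after drought by 1.98, 2.02 and 2.45, as was HSFC2B by 2.45. Loci not called in watered roots differed by 1.19 for IRT1, 1.08 for BZIP23, 0.71 for TRAB1, 2.21 for ADH2, -1.06 for COI1A, -2.63 for LSI2 and -1.78 for HAK1. Loci with a negative effect in both conditions, more negative after drought, gave -2.48 for PHO1-2, -3.50 for GLN1-2, -1.89 for NAR2.1, -1.45 for LSI1, -1.78 for CAD9, -1.13 for EXPB3, -1.36 for NRAMP5, -1.26 for HMA5, -0.95 for PIP2-3 and -2.11 for MT2C.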

How the results depend on the processing

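The 7642 calls became 458, and the 850 calls of at least 2-fold became 306, in the fit over all 11 RNA libraries. The other settings gave 6302 to 7776 calls and 699 to 1255 of at least 2-fold, and leaving out 1 library gave 5618 to 7681 and 792 to 933. Higher loci were 58.6% of the calls and 52.1% after median-ratio scaling, which moved the median of all loci to -0.004, against 0.027 without it. OsNMCP1 was called in all settings, at 2.16 to 2.31 with 1 library left out. In watered roots, OE and WT libraries of the same number did not deviate together (correlation of deviations -0.015 and 0.011). With only 2 OE libraries this check is thin, and pairing of watered with drought libraries was not tested. The fit with the replicate block gave 6302 calls, 822 of at least 2-fold, and 2.23 for OsNMCP1. Of 148 named loci called, 116 kept the call whichever library was left out, 5 (HAK5, NCED3, CCD8A, LOC_Os03g18779 and LOC_Os03g43100) kept it in the 3 fits without a WT library but fell under the filter in both fits without an OE library, and 27 lost it in at least 1 fit. The number of members called moved by over 1.5 times in the 11-library fit for all but 4 of the 43 lists, and in each other setting 32 to 43 lists stayed within that range. Where 1 OE library is left out, the lone one is assumed to vary like WT. No named locus changed direction past the threshold in these settings. The interaction was called for 65 named loci and for 47 after median-ratio scaling. Without counts, the precision that depth gives at loci near 1 TPM could not be computed.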

Other observations

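Within the WT libraries, WT replicate 2 lay nearest to the OE mean at 548 of the 850 loci called with at least a 2-fold difference (64.5%), against 155 for WT replicate 1 and 147 for WT replicate 3. These loci were called with the same libraries and the share over all loci tested was not computed, so 64.5% is a description. Without WT replicate 2, 933 loci were called at 2-fold.

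Among watered libraries, 3 loci reached at least 20 TPM in 1 WT library and stayed under 1 TPM in another, and no locus did so between the OE libraries. They were chosen after their values were seen. LOC_Os05g03865 had 0.240 and 0.294 TPM in OE, against 0.182, 534 and 570 TPM in WT. After drought it had 3429, 2717 and 2622 TPM in OE, against 0.174, 1455 and 1774 TPM in WT. LOC_Os06g19370 had 72.3 and 73.6 TPM in OE, against 40.8, 46.8 and 0.002 TPM in WT. LOC_Os03g04370 had 42.8 and 39.6 TPM in OE, against 21.2, 0 and 25.2 TPM in WT.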
